A study of Mus musculus with 7 samples.

Results

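Elastic fibres were examined through 10 genes encoding their core, their microfibrils and the proteins that assemble them, chosen by name: *Eln*, *Fbn1*, *Fbn2*, *Fbln1*, *Fbln2*, *Fbln5*, *Efemp2*, *Mfap2*, *Mfap4* and *Mfap5*. All 10 were found among the 55401 genes of the count table, and all 10 passed the filter on low counts that left 17465 genes for testing. The right lung lobes of male C57BL/6 mice aged 6 to 8 weeks were sequenced at day 21 after bleomycin, a drug that damages lung tissue and is used to model pulmonary fibrosis. The bleomycin group (BLM) held 4 mice, and the group also given hyperbaric oxygen (HBO), pure oxygen breathed under raised pressure, held 3 (BLM+HBO). HBO was given at 2.5 ATA for 90 min per day on 14 consecutive days from day 7. Both groups had received bleomycin, and no mouse without bleomycin is compared here. The sample records place the BLM mice in the chamber for the same time with no oxygen pressure, whereas the supplementary methods describe them as untreated, and which applied was not settled. Each mouse gave 1 library of one tissue piece, so cell types were not separated.

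Elastic fibres let the lung recoil after each breath. Their core is elastin, secreted as soluble tropoelastin, which is laid down on a scaffold of fibrillin microfibrils with the help of fibulins and is cross-linked by lysyl oxidases. Mesenchymal cells of the alveolar wall, vessels, airways and pleura make most of these proteins, chiefly while the lung forms, and fibrotic lung makes them again.

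Libraries held 18157161 to 26365969 counts. Levels are given as CPM, the reads of a gene scaled by the TMM-adjusted number of reads in tested genes, and differences as log2 fold changes of BLM+HBO over BLM with their standard errors (SE), so negative values are lower in BLM+HBO. A gene had to differ by more than 1.5-fold at an unadjusted P below 0.05 in edgeR's quasi-likelihood test over all tested genes. Epithelial genes of the lung, such as *Sftpc* and *Scgb1a1*, summed to at least 13415 CPM in every mouse. In whole lobes, fewer cells of a type and less RNA per cell cannot be told apart.

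Of the 10 genes, *Fbn1* and *Fbln2* were lower in BLM+HBO past both thresholds and none was higher. Over all tested genes 2.89% were lower and 3.4% were higher by the same thresholds. The mean was lower in BLM+HBO for 8 of the 10 genes and higher for *Fbln1* and *Mfap4*, and their median log2 fold change was -0.33, against 0.0071 for all tested genes. An unadjusted P below 0.05 was reached by 3 of the 10, *Efemp2* being the third with a fold change below 1.5, while 10.7% of all tested genes reached it. After Benjamini-Hochberg adjustment over all tested genes, 0 of the 10 passed 0.05 by edgeR, by DESeq2 or by limma-trend. By DESeq2, 0.918% of the 16886 genes given an adjusted P passed. The edgeR adjusted P of the 10 ran from 0.434 to 0.983.

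**Figure D1:**
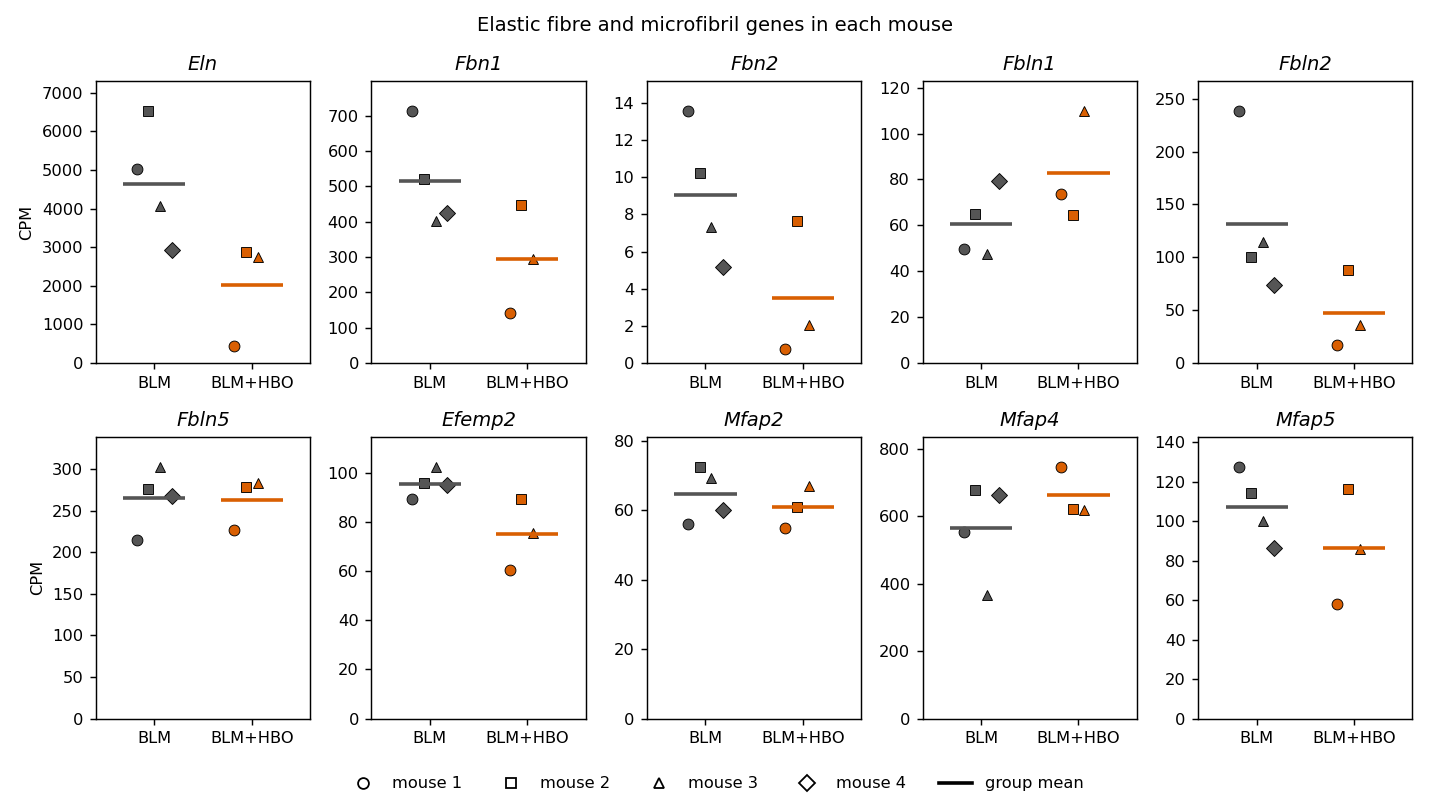
CPM of the 10 genes in each mouse, 1 panel per gene with its own axis from 0, BLM in grey and BLM+HBO in orange. Marker shapes number the mice within their group and lines are group means. The BLM+HBO 1 mouse (orange circle) is the lowest of the 7 mice for 7 of the 10 genes.

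*Eln* (encoding elastin, the rubber-like core of the fibre) measured 5037, 6519, 4062 and 2916 CPM in BLM 1 to BLM 4. In BLM+HBO 1 to BLM+HBO 3 it measured 449, 2874 and 2740 CPM. Every BLM+HBO mouse lay below every BLM mouse, but BLM 4 and BLM+HBO 2 nearly met. *Eln* was the only one of the 10 genes whose groups did not overlap, and 4.72% of all tested genes were separated in that direction and 4.05% in the other. The log2 fold change was -1.20 (SE 0.54), with an unadjusted P of 0.0527 and an edgeR adjusted P of 0.471, so *Eln* did not pass the threshold. With DESeq2, the tool of the study's methods, the unadjusted P was 0.029 and *Eln* passed both thresholds. DESeq2 was run without the filter on low counts, so its shares are over 32868 genes with a P, many of them low. Of these, 1.91% passed in that direction and 2.34% in the other.

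The size of the *Eln* difference rested on BLM+HBO 1. The mean of the BLM mice was 10.3-fold the level in BLM+HBO 1, 1.61-fold that in BLM+HBO 2 and 1.69-fold that in BLM+HBO 3. Without BLM+HBO 1 the log2 fold change was -0.72 (SE 0.29) with an unadjusted P of 0.0373, so that the difference was smaller and passed both thresholds. Its edgeR adjusted P was then 0.802, within a range of 0.0711 to 0.802 over all settings tried. It also passed when BLM 4 (unadjusted P of 0.0434), BLM+HBO 2 (0.0309) or BLM+HBO 3 (0.0496) was left out.

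*Eln* alone made up most of the reads of the 10 genes in every mouse but BLM+HBO 1. It took between 62.4% and 77.1% of their counts in the BLM mice, 24.6% in BLM+HBO 1, 61.8% in BLM+HBO 2 and 63.5% in BLM+HBO 3. Together the 10 genes took between 0.467% and 0.813% of each BLM library, and 0.189%, 0.471% and 0.436% of the BLM+HBO libraries. The 9 genes other than *Eln* summed to between 1511 and 2054 CPM in BLM and to 1379, 1774 and 1573 CPM in BLM+HBO, so that their summed levels overlapped.

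The fibrillins form the microfibril backbone, with *Fbn1* (encoding fibrillin-1, mutated in Marfan syndrome) as the main form after birth and *Fbn2* (encoding fibrillin-2) used mostly during development. *Fbn1* measured 712, 522, 401 and 424 CPM in the BLM mice and 140, 447 and 295 CPM in the BLM+HBO mice. BLM+HBO 2 lay above BLM 3 and BLM 4, so the groups overlapped. The log2 fold change was -0.81 (SE 0.35), a 1.75-fold lower level in BLM+HBO, with an unadjusted P of 0.0440 and an edgeR adjusted P of 0.461. The call was lost when BLM 1 was left out (unadjusted P of 0.116), and likewise for BLM 2 (0.0718), BLM+HBO 1 (0.105) and BLM+HBO 3 (0.0910).

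*Fbn2* had the lowest levels of the 10 genes, with 246, 181, 133 and 98 reads in the BLM libraries and 14, 160 and 55 reads in the BLM+HBO libraries. These made 13.5, 10.2, 7.30 and 5.16 CPM against 0.745, 7.66 and 2.06 CPM. BLM+HBO 2 lay within the BLM range and the other two BLM+HBO mice below it. The log2 fold change of -1.37 (SE 0.64) did not pass, with an unadjusted P of 0.0596 and an edgeR adjusted P of 0.489. Without BLM+HBO 2 it was -2.65 (SE 0.52) with an edgeR adjusted P of 0.0447, in a fit in which 1.49% of all genes passed 0.05, and over all settings the adjusted P ran from 0.0447 to 0.802. Without BLM 4 *Fbn2* also passed the unadjusted thresholds (unadjusted P of 0.0476).

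The long fibulins, *Fbln1* (encoding fibulin-1, found in elastic fibres and basement membranes) and *Fbln2* (encoding fibulin-2, a binding partner of tropoelastin and fibrillin-1), lay on opposite sides of 0. *Fbln2* measured 238, 99.9, 114 and 74.1 CPM in the BLM mice and 17.5, 88.4 and 36.3 CPM in the BLM+HBO mice. BLM 1 was the highest mouse, and only BLM+HBO 2 reached into the BLM range. The log2 fold change was -1.47 (SE 0.54), the largest of the 10 genes in size and a 2.78-fold lower level in BLM+HBO. The unadjusted P was 0.0219 and the edgeR adjusted P was 0.434, within a range of 0.0102 (no filter on low counts) to 0.802 over the settings tried. The call was lost when BLM 1 was left out (unadjusted P of 0.0650), and likewise for BLM+HBO 1 (0.0571) and BLM+HBO 3 (0.0730).

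*Fbln1* measured 49.9, 65.1, 47.4 and 79.2 CPM in BLM and 73.8, 64.4 and 110 CPM in BLM+HBO. The 2 highest mice were BLM+HBO 3 and BLM 4, and the groups overlapped. The log2 fold change of 0.45 (SE 0.22) did not pass, with an unadjusted P of 0.0692 and an edgeR adjusted P of 0.501. It passed both thresholds without BLM 4 (log2 fold change 0.61, unadjusted P of 0.0200) and without BLM+HBO 2 (0.60, unadjusted P of 0.0255), and was 0.19 without BLM+HBO 3. Within a mouse, the log2 ratio of *Fbln2* to *Fbln1* CPM averaged 1.01 ± 0.999 (SD, n = 4) over the BLM mice. Over the BLM+HBO mice it averaged -1.07 ± 1.34 (SD, n = 3), and the groups overlapped.

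The short fibulins bind elastin and lysyl oxidases during assembly. *Fbln5* (encoding fibulin-5, which tethers elastin to cells and microfibrils) measured 215, 276, 303 and 267 CPM in BLM and 226, 279 and 283 CPM in BLM+HBO. All 7 mice lay within 0.50 on the log2 scale, and the log2 fold change was -0.01 (SE 0.14), with an edgeR adjusted P of 0.983. The log2 ratio of *Fbln5* to *Eln* CPM was higher in every BLM+HBO mouse, at -0.99, -3.37 and -3.28, than in any BLM mouse, where it ran from -4.56 to -3.45. This ratio was one of 5 computed, without a test, and the only one whose groups did not overlap.

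*Efemp2* (encoding fibulin-4, needed for elastin cross-linking) measured 89.2, 96.0, 103 and 94.99 CPM in BLM. In BLM+HBO it measured 60.5, 89.2 and 75.7 CPM. Its BLM mice were the most alike of any of the 10 genes, spanning 0.20 on the log2 scale, and BLM+HBO 2 coincided with the lowest of them. The log2 fold change was -0.35 (SE 0.13) with an unadjusted P of 0.0282 and an edgeR adjusted P of 0.439, and the fold change of 1.27 was below the threshold of 1.5.

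**Figure D2:**
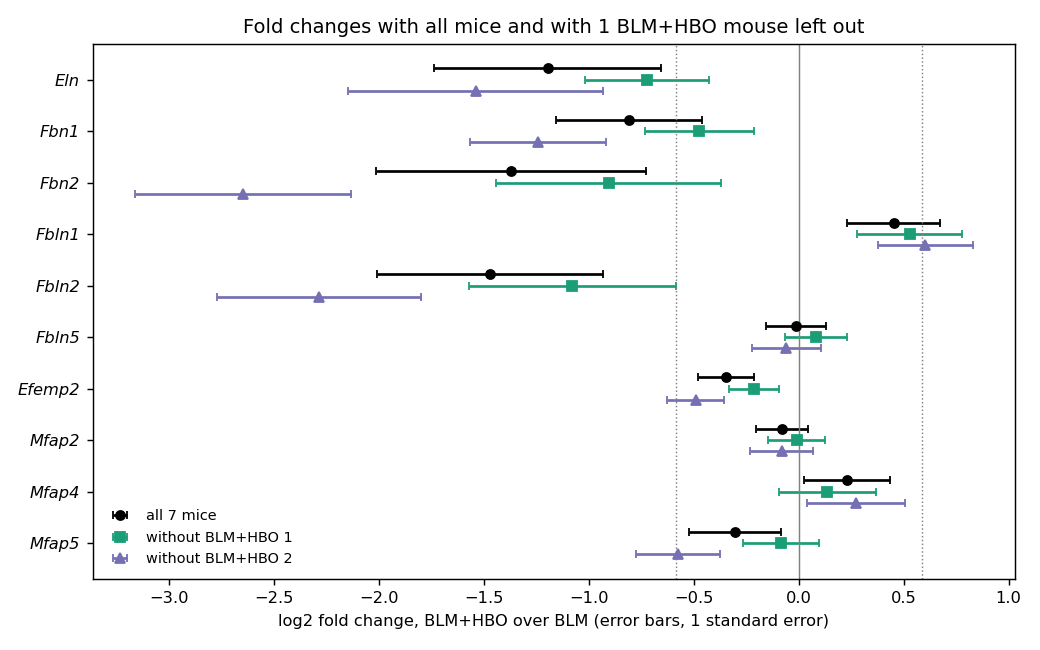
Log2 fold change (BLM+HBO over BLM) of each gene with 1 SE, for all 7 mice and with BLM+HBO 1 or BLM+HBO 2 left out. The solid line marks 0 and the dotted lines a fold change of 1.5. The values of *Eln*, *Fbn1*, *Fbn2* and *Fbln2* moved toward 0 without BLM+HBO 1 and away from 0 without BLM+HBO 2, and those of *Fbln5*, *Mfap2* and *Mfap4* stayed near 0 in each.

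The microfibril-associated genes encode glycoproteins that bind to fibrillin and elastin, and none of the 3 passed the threshold. *Mfap2* (encoding MAGP-1) measured 56.2, 72.6, 69.4 and 60.2 CPM in BLM and 55.0, 61.1 and 67.2 CPM in BLM+HBO, with a log2 fold change of -0.08 (SE 0.12). *Mfap5* (encoding MAGP-2) measured 128, 114, 100 and 86.6 CPM in BLM and 57.9, 116 and 86.0 CPM in BLM+HBO, with a log2 fold change of -0.31 (SE 0.22). *Mfap4* (encoding a fibrinogen-related protein that binds tropoelastin and fibrillin) measured 552, 677, 366 and 662 CPM in BLM and 747, 621 and 618 CPM in BLM+HBO, with a log2 fold change of 0.23 (SE 0.21). BLM+HBO 1 was the highest mouse for *Mfap4* and the lowest for both *Mfap2* and *Mfap5*. The edgeR adjusted P was 0.848 for *Mfap2*, 0.639 for *Mfap5* and 0.711 for *Mfap4*.

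Across the 10 genes, BLM+HBO 1 was the lowest mouse for 7 and the highest for 1. Over all tested genes, 19.8% were lowest in that mouse. BLM 1 was the highest mouse for 4 of the 10, with no share over all tested genes to set beside it. Against the mean of the BLM mice on the log2 scale, BLM+HBO 1 lay at -3.30 for *Eln*, -3.35 for *Fbn2*, -2.76 for *Fbln2* and -1.84 for *Fbn1*, whereas for *Fbln5* and *Mfap2* it lay at -0.22. BLM+HBO 2 lay between -0.63 and 0.18 for every one of the 10, and BLM+HBO 3 at -1.99 for *Fbn2*, -1.71 for *Fbln2* and 0.89 for *Fbln1*.

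**Figure D3:**
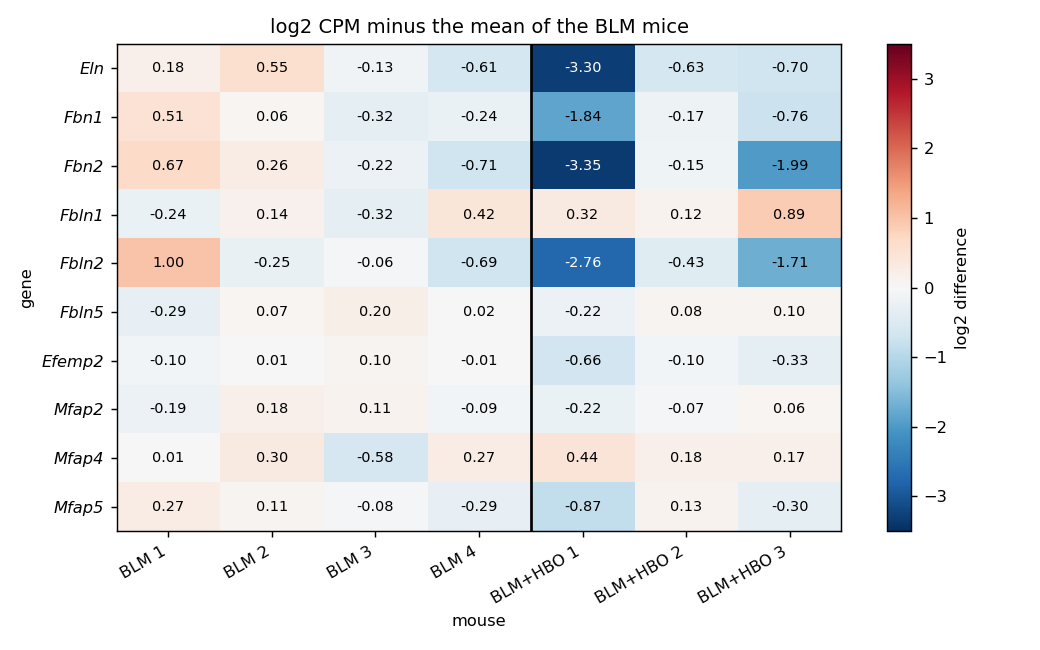
Log2 CPM of each gene in each mouse minus the mean of the 4 BLM mice, with genes in rows and mice in columns and the value printed in each cell (blue, lower; red, higher). The lowest cells are those of *Eln* and *Fbn2* in BLM+HBO 1, at -3.30 and -3.35.

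The number of these genes past both thresholds turned on single mice. It was 0 without BLM 1, where 1.76% of all genes were lower past both thresholds, 1 (*Fbln2*) without BLM 2, where 2.43% were, and 2 without BLM 3, where 2.88% were. It was 1 (*Eln*) without BLM+HBO 1, where 1.76% of all genes were lower, and 1 (*Eln*) without BLM+HBO 3, where 2.07% were. It was 5 without BLM 4 and 5 without BLM+HBO 2, with *Eln*, *Fbn1*, *Fbn2* and *Fbln2* lower and *Fbln1* higher in both. Of all genes, 3.11% were lower and 3.97% higher without BLM 4, and 5.41% were lower and 5.29% higher without BLM+HBO 2.

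The genes were ordered by level as CPM per kilobase of exon. The share of *Eln* in the counts and the log2 ratios between genes given above were not corrected for length. In BLM the order was *Eln* at 572 ± 189 (SD, n = 4), *Mfap4* at 294 ± 74.7, *Mfap2* at 53.4 ± 6.33, *Fbn1* at 42.5 ± 11.7 and *Fbln5* at 38.4 ± 5.33. Then came *Mfap5* at 29.9 ± 4.93, *Efemp2* at 25.3 ± 1.44, *Fbln2* at 20.7 ± 11.5, *Fbln1* at 13.8 ± 3.38 and *Fbn2* at 0.685 ± 0.275. *Eln* did not overlap *Mfap4*, *Mfap4* did not overlap *Mfap2*, and *Fbln1* did not overlap *Fbn2*, whereas every other pair of neighbours in that order overlapped. In BLM+HBO, *Mfap4* at 344 ± 38.1 (SD, n = 3) stood first and *Eln* at 250 ± 168 second, with overlapping mice. There *Fbln1* at 18.9 ± 5.48 stood above *Fbln2* at 7.44 ± 5.77 without overlap, the reverse of their order in BLM.

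**Figure D4:**
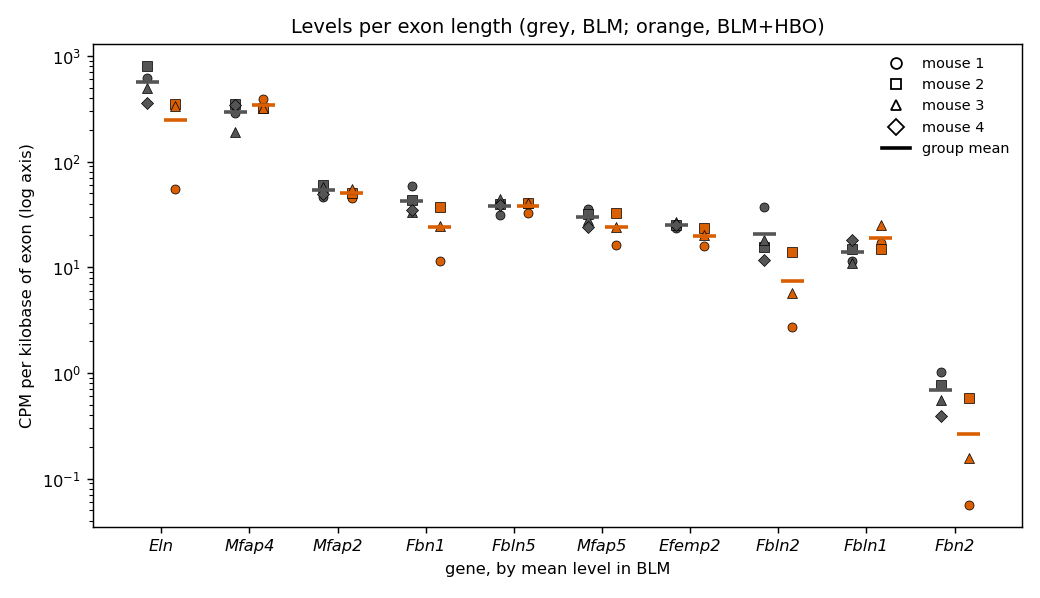
CPM per kilobase of exon on a log axis, with genes in the order of their mean level in BLM, BLM in grey and BLM+HBO in orange, 1 marker per mouse and lines at group means. *Eln* and *Mfap4* lie above all other genes in the BLM mice, and *Eln* in BLM+HBO 1 falls to 55.5.

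The genes lie on 9 chromosomes, with *Fbln2* and *Mfap5* far apart on chromosome 6. In GRCm38 coordinates of the count table, *Eln* (ENSMUSG00000029675) lies on the minus strand at chr5:134702593-134747323 with 36 merged exons. *Fbn1* (ENSMUSG00000027204) lies on the minus strand at chr2:125300594-125507993 with 65, and *Fbln2* (ENSMUSG00000064080) on the plus strand at chr6:91212455-91272540 with 20. *Fbn1* shares 20.1% of its exon bases with *Gm9913* on the other strand, and reads from a shared stretch were not assigned to either gene. *Gm9913* had at most 21 reads in any library. *Eln*, *Efemp2* and *Mfap4* share between 3.30% and 4.63% with a gene on the other strand, and the other 6 share none.

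Promoter sequence is shown for the 4 genes with an unadjusted P below 0.05 or the highest log2 fold change, to set beside their values the sequence before their starts. No window of *Eln*, *Fbn2*, *Mfap4* or *Mfap5* was searched. RefSeq windows (GRCm38.p6) of 250 bases upstream of a start were used for *Fbn1*, *Fbln1*, *Fbln2*, *Fbln5*, *Efemp2* and *Mfap2*. They were searched on both strands for SP1 (GGGCGG), AP-1 (TGANTCA), the SMAD CAGA box (CAGAC), the HIF core (ACGTG) and the TATA box (TATAAA). Of all 32851 windows, 32.7% held the first, 6.75% the second, 42.2% the third, 16.6% the fourth and 12.4% the fifth. The windows of *Fbn1* and *Fbln2* lie wholly inside GENCODE exons of the same gene, and that of *Fbn1* also inside exons of *Gm9913*. For *Fbn1* and *Fbln2* the 26 bases around their only match are shown, with the SP1 letters in capitals. They lie at chr2:125506608-125506633 on the minus strand and chr6:91212738-91212763 on the plus strand.
Fbn1: gcccgggtccGGGCGGtggctggcag
Fbln2: aatcgaggccCCGCCCtgaggcggga

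For *Efemp2*, lower at an unadjusted P below 0.05, and *Fbln1*, the gene with the highest log2 fold change, the whole window of the first start is shown, at chr19:5473696-5473945 and chr15:85205699-85205948, both on the plus strand. Capitals mark every match to the 5 motifs on either strand.
Efemp2: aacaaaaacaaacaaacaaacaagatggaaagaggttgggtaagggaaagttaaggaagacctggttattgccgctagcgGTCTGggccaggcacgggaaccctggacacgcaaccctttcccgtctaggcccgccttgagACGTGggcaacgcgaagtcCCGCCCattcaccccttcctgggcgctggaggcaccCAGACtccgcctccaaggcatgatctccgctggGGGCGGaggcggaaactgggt
Fbln1: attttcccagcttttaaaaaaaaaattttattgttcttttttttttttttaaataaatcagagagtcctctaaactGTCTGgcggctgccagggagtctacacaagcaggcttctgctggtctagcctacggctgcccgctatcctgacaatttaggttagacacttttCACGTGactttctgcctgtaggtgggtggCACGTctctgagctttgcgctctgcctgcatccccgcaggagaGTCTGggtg

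The *Efemp2* window held 2 SP1, 2 CAGA box and 1 HIF core matches, and the *Fbln1* window held 2 CAGA box and 3 HIF core matches, of which the first pair overlap. The matches changed with the start, of which *Efemp2* had 3 and *Fbln1* had 2. The later *Efemp2* windows each held 5 SP1 matches and 0 of the CAGA box or HIF core. The second *Fbln1* window held 1 SP1 match as well. Genes with log2 fold changes near 0 held matches to the same motifs. *Fbln5* (-0.01) had 2 SP1 matches in a window and 2 CAGA box matches in its other window. *Mfap2* (-0.08) had 2 SP1 matches in a window and 1 CAGA box match in its other window. GC content was 59.2% for *Fbn1*, 58.8% for *Fbln2*, 59.2% for *Efemp2* and 46.4% for *Fbln1*. These matches describe letters only, and no binding was measured.

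The other genes of the fibre were taken from a list of 17, comprising lysyl oxidases, latent TGF-beta binding proteins, emilins, further fibulins and ADAMTS proteins. All 17 were tested. Past both thresholds, 6 were lower in BLM+HBO and 0 were higher by edgeR, with 7 at an unadjusted P below 0.05. Over all tested genes these shares were 2.89%, 3.4% and 10.7%. DESeq2 gave 7 lower, with *Loxl3* among them and *Loxl2* not (unadjusted P of 0.0561), and 0 higher. Of its 32868 unfiltered genes, 1.91% were lower. The mean was lower for 14 of the 17 and the median log2 fold change was -0.59, against 0.0071 for all tested genes. The groups of 5 of the 17 did not overlap, all lower in BLM+HBO, as for 4.72% of all tested genes. An adjusted P below 0.05 was reached by 0 of the 17, whether with edgeR, DESeq2 or limma-trend, the lowest edgeR value being 0.423. The count was 2 without BLM 1, and 3, 10 and 2 when BLM+HBO 1, BLM+HBO 2 and BLM+HBO 3 were left out in turn.

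The lysyl oxidases, copper enzymes that cross-link elastin and collagen, held 4 of the 6. *Lox* (encoding lysyl oxidase itself) measured 799, 604, 466 and 338 CPM in BLM and 89.3, 380 and 170 CPM in BLM+HBO, with only BLM+HBO 2 inside the BLM range. Its log2 fold change was -1.37 (SE 0.45), with an unadjusted P of 0.0135 and an edgeR adjusted P of 0.423, within 0.0069 (no filter on low counts) and 0.802 over the settings tried. *Lox* did not pass without BLM+HBO 3 (unadjusted P of 0.0505). *Loxl1* (encoding the form that acts mainly on elastin) measured 314, 331, 262 and 241 CPM against 124, 222 and 216 CPM without overlap, with a log2 fold change of -0.62 (SE 0.21). Its fold change fell under 1.5 when BLM 1 (log2 fold change -0.57), BLM 2 (-0.54) or BLM+HBO 1 (-0.39) was left out. *Loxl2* and *Loxl4* were lower by 0.96 (SE 0.39) and 0.99 (SE 0.29) on the log2 scale, again without overlap, and both were highest in BLM 1. *Loxl2* did not pass both thresholds with robust empirical Bayes (unadjusted P of 0.0546) or when BLM 1 (0.0873), BLM+HBO 3 (0.0736) or BLM+HBO 1 (log2 fold change -0.58) was left out, whereas *Loxl4* passed both in each fit tried. *Loxl3* had a log2 fold change of -0.79 (SE 0.36) and an unadjusted P of 0.0524, and did not pass.

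The remaining pair were *Ltbp1* (encoding a carrier of latent TGF-beta that binds fibrillin) and *Emilin2* (encoding an elastin-associated glycoprotein). *Ltbp1* measured 223, 168, 147 and 142 CPM in BLM and 87.4, 156 and 94.6 CPM in BLM+HBO, with a log2 fold change of -0.59 (SE 0.23). It did not pass when BLM 1 (unadjusted P of 0.0713), BLM+HBO 1 (0.0997) or BLM+HBO 3 (0.0975) was left out, or with upper-quartile factors (log2 fold change -0.57). *Emilin2* measured 66.5, 48.6, 48.0 and 49.3 CPM against 42.4, 37.6 and 16.8 CPM, with a log2 fold change of -0.72 (SE 0.28) and no overlap. For *Emilin2* the lowest mouse was BLM+HBO 3, not BLM+HBO 1. It did not pass without BLM 1 (unadjusted P of 0.0711) or without BLM+HBO 3 (log2 fold change -0.41).

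**Figure D5:**
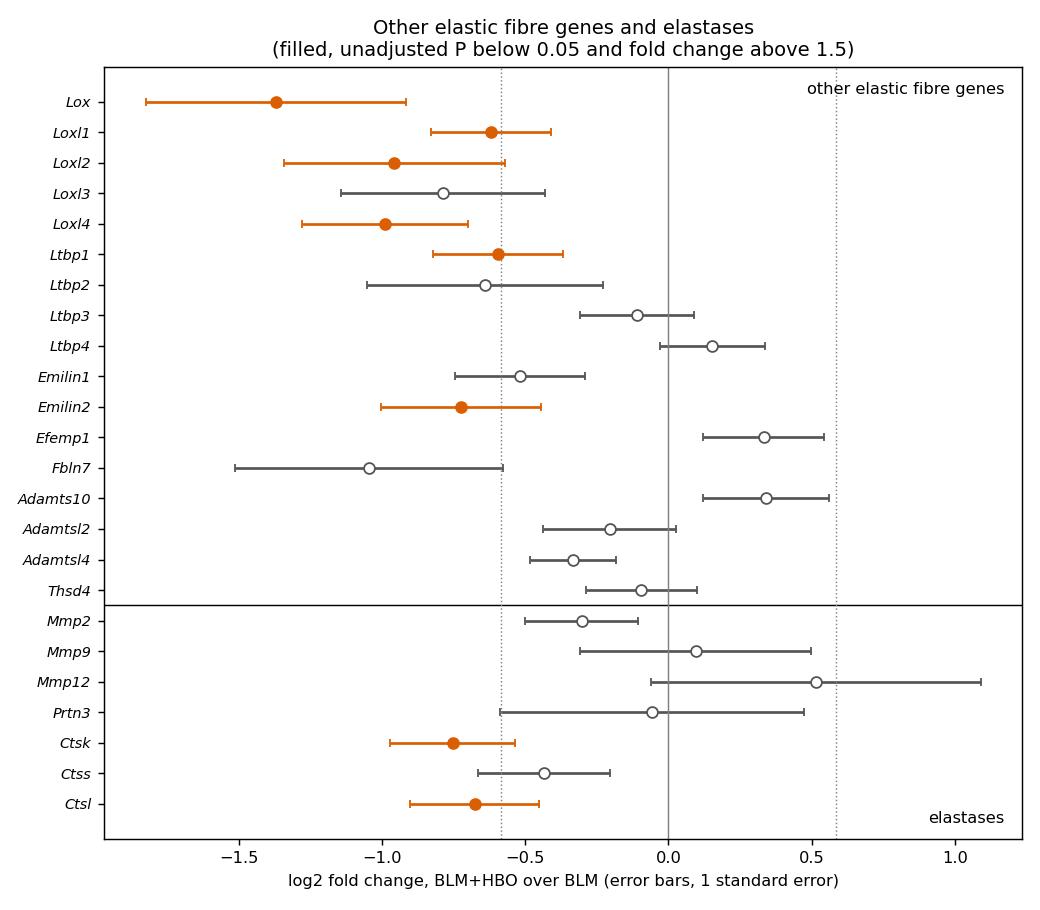
Log2 fold change (BLM+HBO over BLM) with 1 SE for the other elastic fibre genes (upper block) and the tested elastases (lower block). Filled orange points passed both thresholds, the solid line marks 0 and the dotted lines a fold change of 1.5. The 8 filled points all lie below 0, and *Mmp12* has the widest error bar.

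Of 10 elastin-degrading enzymes, 7 were tested, and *Mmp7*, *Elane* and *Ctsg* had too few reads. *Ctsk* and *Ctsl* (encoding cathepsins K and L) were lower past both thresholds and 0 were higher by edgeR, with 2 at an unadjusted P below 0.05 and the same number by DESeq2. The shares over all tested genes were 2.89% lower by edgeR and 10.7% at an unadjusted P below 0.05. By DESeq2, 1.91% of its 32868 unfiltered genes were lower. Their log2 fold changes were -0.75 (SE 0.22) and -0.68 (SE 0.23), and the median of the 7 was -0.30. *Ctsl* did not pass both thresholds when BLM 3 (log2 fold change -0.55), BLM+HBO 1 (-0.53) or BLM+HBO 3 (-0.56) was left out. *Mmp12* (encoding macrophage elastase) measured 112, 105, 356 and 160 CPM in BLM and 142, 533 and 110 CPM in BLM+HBO. Its log2 fold change of 0.51 (SE 0.58) did not pass, and it was -0.54 without BLM+HBO 2. *Elane* (encoding neutrophil elastase) had at most 13 reads in a library.

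Several lists of cell type markers differed alongside these genes. Beside the counts of markers below, 2.89% of all tested genes were lower and 3.4% higher past both thresholds. The 6 genes listed as activated fibroblast markers were *Cthrc1*, *Postn*, *Col1a1*, *Col3a1*, *Tnc* and *Spp1*. They summed to between 8408 and 12235 CPM in BLM and to 2155, 7569 and 3581 CPM in BLM+HBO. The mean was lower for all 6, 5 of them past both thresholds. *Spp1*, which is not made by fibroblasts alone, was the largest part of the sum in every BLM mouse, at 3820 to 4952 CPM. In BLM+HBO *Spp1* measured 703, 3054 and 994 CPM, and which cells expressed it was not measured. In the sums of these 6 markers, as for *Eln*, *Fbn1*, *Fbn2* and *Fbln2*, BLM+HBO 1 was lowest and BLM+HBO 2 highest of the BLM+HBO mice. That order was not particular to this list. It also held for the sums of the smooth muscle (500, 739 and 569 CPM), macrophage (532, 891 and 566 CPM) and cartilage markers (3.30, 5.65 and 4.39 CPM). The 6 alveolar fibroblast markers summed to between 1182 and 1933 CPM in BLM and between 1642 and 2784 CPM in BLM+HBO, with a higher mean for 5 of the 6, 3 of them past both thresholds. The part of these markers in the differences was not tested.

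Of the other sources of elastin, the 6 smooth muscle markers summed to between 605 and 912 CPM in BLM and between 500 and 739 CPM in BLM+HBO, with a lower mean for 4 of the 6. Of these, 1 passed both thresholds, *Acta2* (log2 fold change -0.76), which the paper lists as a myofibroblast marker. *Myh11* and *Cnn1* had a higher mean in BLM+HBO. The 6 mesothelial markers summed to between 431 and 739 CPM against 132 to 505 CPM, with a lower mean for all 6, 2 of them past both thresholds. The 6 endothelial markers lay between 2575 and 3072 CPM in all mice, with none past both thresholds. The cartilage markers summed to at most 6.71 CPM, and 2 of the 8 were tested. The 6 adventitial fibroblast markers spanned 623 to 749 CPM in BLM and 519 to 672 CPM in BLM+HBO, with 1 lower and 1 higher past both thresholds.

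The 8 heart muscle markers summed to between 58.9 and 169 CPM in BLM and to 629, 508 and 150 CPM in BLM+HBO. The mean was higher for all 8, 7 of them past both thresholds, as for 3.4% of all tested genes. Of 6 adipocyte markers, 4 were tested. The mean was higher for 3 of them, none past both thresholds, and 1 (*Fabp4*) was lower past both thresholds. The 6 macrophage markers summed to between 903 and 1323 CPM in BLM and to between 532 and 891 CPM in BLM+HBO, without overlap. Of all tested genes taken singly, 4.72% were separated in that direction. The mean was lower for all 6 macrophage markers, 4 of them past both thresholds, as for 2.89% of all tested genes. The 6 epithelial markers summed to between 13415 and 25552 CPM in BLM and to 33185, 19584 and 41692 CPM in BLM+HBO, with a higher mean for 5 of the 6, of which 1 (*Scgb1a1*, log2 fold change 0.73) passed both thresholds. No marker in any of these lists was at 0 in every mouse. The part of these cell types in the differences was not tested.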

How the data were processed

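RNA-seq was performed on right lung lobes of 4 BLM and 3 BLM+HBO mice, 1 library per mouse, grouped by the sample titles. The authors used Trim Galore for trimming and HISAT2 2.2.0 for mapping to GRCm38, and deposited raw read counts per gene from featureCounts (2.2.0 in the submitters' processing notes, another version in the supplementary methods). The annotation release is not given in the sources used here. Default featureCounts settings ignore strand and leave out reads shared by several genes. Per the methods, mice that did not meet a criterion of weight loss were excluded. Symbols came from GENCODE vM21, in which 54349 of 55401 identifiers had the same version.

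Low genes were removed by filterByExpr (at least 10 counts, 15 in total), and the rest were scaled by TMM (factors 0.964 to 1.036) and tested with edgeR 4.0.16 (quasi-likelihood, not robust; biological coefficient of variation 0.222) under R 4.3.3, with Benjamini-Hochberg adjustment. Log2 CPM used a prior count of 2. Counts per gene limit precision: *Fbn2* had as few as 14 reads, *Eln* at least 8443. Replicates differed beyond sampling noise (chi-square per gene of at least 22.1), so each mouse counted once. The most alike pair of mice from different groups had a lower value, 13.0, than any pair within a group. The labels do not state whether the mice shared cages or litters, and P-values set the group difference against the spread between these mice. Exon length was the length in the count table.

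The genes named were all 10 fibre genes, the lysyl oxidases, genes of the other fibre and elastase lists past both thresholds, *Mmp12*, *Elane*, list markers and the 5 genes most like *Eln*. The genes and lists were chosen with earlier results of these data known. The thresholds follow the study's methods. Alternatives were DESeq2 1.42.0, limma-trend (limma 3.58.1), RLE and upper-quartile factors, no filter, at least 1 CPM in 3 mice, a replicate block, robust empirical Bayes, other thresholds and leaving out each mouse. The scripts were tested on simulated data.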

Additional observations from a re-analysis of the deposited data

Results flagged for a closer look

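In 31 groups of 4 BLM values examined, 4 held a mouse whose gap to its nearest neighbour, as a share of the whole range, exceeded Dixon's 95% critical value. Chance gives about 1 in 20 groups, and none of the 4 was one of the 10 elastic fibre and microfibril genes. For *Loxl2* the share was 0.860, with BLM 1 at 7.30 log2 CPM and the other BLM mice between 6.60 and 6.70. For *Loxl4* it was 0.898, with BLM 1 at 4.41 and the others between 3.48 and 3.57. For *Emilin2* it was 0.918, with BLM 1 at 6.06 and the others between 5.59 and 5.63. For the summed smooth muscle markers it was 0.889, with BLM 4 at 9.24 and the others between 9.77 and 9.83. The groups of 3 BLM+HBO mice were not examined in this way.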

How the results depend on the processing

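The 10 genes past both thresholds numbered 2 as reported, 3 with DESeq2, 4 with limma-trend and 4 with no filter on low counts. They numbered 1 (*Fbln2*) with robust empirical Bayes, 1 at a fold change above 2 and 0 at an edgeR adjusted P below 0.05. With each mouse left out in turn, they numbered 0 to 5. The other fibre genes numbered 8 with limma-trend, 9 with no filter, 5 with robust empirical Bayes, 1 at a fold change above 2, 0 at the adjusted threshold and 2 to 10 with a mouse left out, against 6. The elastases numbered 0 at a fold change above 2, 0 at the adjusted threshold and 1 to 3 with a mouse left out, against 2. Of all genes, 2.89% were lower past both thresholds as reported, 3.41% with limma-trend, 2.62% with no filter and 2.65% with robust empirical Bayes. The share was 1.91% of 32868 genes with DESeq2, and 1.76% to 5.41% with a mouse left out. All tested genes numbered 1098 as reported, 1940 with no filter, 509 at a fold change above 2, 1861 with no fold threshold, 0 at the adjusted threshold and 659 to 1914 with a mouse left out. The cause of these shifts was not tested.

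Whether the replicate numbers pair the mice was not settled. Same-numbered mice had correlations of deviations of -0.0080, -0.066 and 0.161, and differently numbered mice of -0.179 to 0.165. No mice known to be paired were available for comparison, so these values cannot decide it. A fit with the replicate block gave 4 of the 10 genes, with *Eln*, *Fbn2* and *Fbln2* lower and *Fbln1* higher, where 3.36% of all genes were lower and 3.85% higher, and 8 of the other fibre genes. At an edgeR adjusted P below 0.05 it gave 0 genes. The sign of *Fbln5*, near 0 throughout, turned with upper-quartile factors (0.0083) and without BLM 2 (0.0060), BLM 3 (0.057) or BLM+HBO 1 (0.083), with a range of -0.10 to 0.083 as each mouse was left out. The sign of *Mmp12* turned without BLM+HBO 2 (-0.54), with a range of -0.54 to 1.06. With 3 and 4 mice, and few reads for *Fbn2*, small differences could not be resolved at this depth.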

Other observations

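Likeness to *Eln* was measured as the root mean square difference between log2 CPM profiles, each centred on its mean over the 7 mice, across the 17464 other tested genes. The 5 nearest were *Hoxb8* (0.227), *Pyy* (0.327), *Frmpd3* (0.328), *Prrx2* (0.333) and *Raet1d* (0.356). *Prrx2* (encoding a mesenchymal homeobox factor) measured 7.42 to 11.1 CPM in BLM and 1.17, 5.36 and 4.01 CPM in BLM+HBO. *Hoxb8* (encoding a homeobox factor) measured 2.63 to 4.18 CPM in BLM and 0.319, 1.96 and 1.95 CPM in BLM+HBO. The other three lay under 3 CPM in every mouse, and *Pyy* and *Raet1d* had no read in BLM+HBO 1. Among the 100 nearest genes of *Eln* were *Fbn1*, *Fbn2* and *Fbln2*. Those of *Fbn2* held *Eln* and *Fbln2*, and those of *Fbln2* held *Fbn1* and *Fbn2*. The other 7 genes had none of the 10 among their 100 nearest. These profiles share the same 7 libraries and are given as a description.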
